A study of Homo sapiens with 4 samples.

Results

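The open chromatin of untreated OPM-2 cells is described here from 1 library: cells given the DMSO vehicle for 72 h. Of the 76404 peaks in its deposited list, 76402, those on chromosomes 1 to 22 and X, were used, and the 20000 with the highest −log10 q-value, the peak caller's significance after correction for many tests, are called strong peaks. The other 56402 are called weaker peaks. OPM-2 is an established human multiple myeloma line, a tumour of plasma cells, and carries the t(4;14) translocation, which joins the immunoglobulin heavy chain locus to the NSD2 and FGFR3 region. The series holds 4 libraries, 1 each for DMSO, 1 µM all-trans retinoic acid, 1 µM pomalidomide and both agents together, all at 72 h. All are the same line, only the DMSO library enters here, and it has no replicate, so every value below is a description without a test.

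ATAC-seq finds open chromatin with the Tn5 transposase, which cuts and tags DNA where nucleosomes leave it exposed. Sites open in most cell types lie mainly at promoters of widely used genes, while sites far from promoters, many of them enhancers, differ more between lineages. A plasma cell silences much of the B cell program under PRDM1 (BLIMP-1), depends on IRF4, and builds up the secretory machinery under XBP1.

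Promoter sequences of 8 genes on which the gene results turn are printed first, from 250 bases before to 50 bases after the annotated start. They come from RefSeq on GRCh38, the assembly that hg38 names. The lines are 5′ to 3′ on the gene's own strand. Capitals mark every match, on either strand, to CCAAT (the NF-Y box), GGGCGG (the GC box), TATAAA (the TATA box), CACGTG (an E-box), TGACGTCA (the cAMP response element), ATGCAAAT (the octamer) or GAAANNGAA (an interferon regulatory factor repeat). IRF4, PRDM1 and XBP1 stand for the plasma cell regulators, HSPA5 and SDC1 for the secretory and surface genes, ILF2 for the high signal on chromosome 1, NSD2 for the translocation, and CD79A for a B lineage gene without a peak.
IRF4, chr6:391502-391801, plus strand: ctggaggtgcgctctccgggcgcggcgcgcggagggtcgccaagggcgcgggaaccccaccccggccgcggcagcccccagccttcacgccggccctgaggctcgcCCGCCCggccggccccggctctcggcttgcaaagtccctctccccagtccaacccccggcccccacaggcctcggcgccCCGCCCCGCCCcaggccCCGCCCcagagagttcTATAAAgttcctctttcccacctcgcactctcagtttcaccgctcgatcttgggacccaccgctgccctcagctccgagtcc
PRDM1, chr6:106086086-106086385, plus strand: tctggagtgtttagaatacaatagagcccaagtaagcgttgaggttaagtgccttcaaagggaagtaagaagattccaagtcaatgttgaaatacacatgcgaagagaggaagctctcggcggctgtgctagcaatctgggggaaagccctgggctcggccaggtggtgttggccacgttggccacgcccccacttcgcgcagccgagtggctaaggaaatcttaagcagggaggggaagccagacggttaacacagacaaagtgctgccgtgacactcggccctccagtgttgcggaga
XBP1, chr22:28800520-28800819, minus strand: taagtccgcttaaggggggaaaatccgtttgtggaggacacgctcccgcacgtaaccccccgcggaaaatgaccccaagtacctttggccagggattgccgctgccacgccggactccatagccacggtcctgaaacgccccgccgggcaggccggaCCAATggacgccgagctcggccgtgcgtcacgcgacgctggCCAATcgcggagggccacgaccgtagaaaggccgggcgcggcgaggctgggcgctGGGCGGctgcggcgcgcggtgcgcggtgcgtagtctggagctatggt
HSPA5, chr9:125241294-125241593, minus strand: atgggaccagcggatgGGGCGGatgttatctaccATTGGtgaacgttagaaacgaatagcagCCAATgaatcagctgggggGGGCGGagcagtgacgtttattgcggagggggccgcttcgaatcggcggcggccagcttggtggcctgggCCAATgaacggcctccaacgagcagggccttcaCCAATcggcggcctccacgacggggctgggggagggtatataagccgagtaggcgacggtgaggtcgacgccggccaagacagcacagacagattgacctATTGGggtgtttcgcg
SDC1, chr2:20225426-20225725, minus strand: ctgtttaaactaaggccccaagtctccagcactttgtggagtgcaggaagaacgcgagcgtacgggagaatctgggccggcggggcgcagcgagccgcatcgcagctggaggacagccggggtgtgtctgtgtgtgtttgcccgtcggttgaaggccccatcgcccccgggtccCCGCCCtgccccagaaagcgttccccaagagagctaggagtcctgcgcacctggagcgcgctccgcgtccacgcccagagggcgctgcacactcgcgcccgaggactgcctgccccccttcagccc
ILF2, chr1:153670944-153671243, minus strand: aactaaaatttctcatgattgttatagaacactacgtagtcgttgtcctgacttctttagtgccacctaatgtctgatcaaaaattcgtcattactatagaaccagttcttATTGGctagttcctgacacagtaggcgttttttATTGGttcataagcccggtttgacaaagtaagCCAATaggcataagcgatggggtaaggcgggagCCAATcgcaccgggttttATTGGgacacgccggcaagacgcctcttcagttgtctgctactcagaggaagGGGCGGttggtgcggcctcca
NSD2, chr4:1871143-1871442, plus strand: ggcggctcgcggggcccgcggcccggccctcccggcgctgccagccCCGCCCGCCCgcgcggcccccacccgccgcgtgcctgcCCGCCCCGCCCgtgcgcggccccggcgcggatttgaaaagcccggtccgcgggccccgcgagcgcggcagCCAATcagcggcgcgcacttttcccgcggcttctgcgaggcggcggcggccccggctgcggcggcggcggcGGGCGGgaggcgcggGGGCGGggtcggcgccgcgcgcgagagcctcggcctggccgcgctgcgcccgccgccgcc
CD79A, chr19:41877029-41877328, plus strand: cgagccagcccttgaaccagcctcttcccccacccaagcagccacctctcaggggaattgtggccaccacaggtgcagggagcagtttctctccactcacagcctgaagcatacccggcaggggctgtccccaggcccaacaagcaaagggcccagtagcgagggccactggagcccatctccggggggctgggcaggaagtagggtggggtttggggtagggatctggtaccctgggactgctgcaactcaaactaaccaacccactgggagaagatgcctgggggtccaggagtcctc
The IRF4 window held 4 GC boxes and a TATA box, and the XBP1 window 2 CCAAT boxes and 1 GC box. HSPA5 and ILF2 each had 5 CCAAT matches. The PRDM1 window shown is an internal start of the gene, where its strongest summit lay 40 bp upstream, and it held none of the 7 motifs. CD79A, with 4 CpG dinucleotides in 300 bases, also held none and had no summit within 1 kb of its start. The NSD2 window shown lay outside every called peak, and the strong summit nearest to it was 754 bp before the start.

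Strong peaks were wide and close to genes. Their median width was 991 bp (quartiles 752 and 1285 bp), against 480 bp for the weaker peaks, and 18 strong peaks (0.09%, 95% Wilson interval 0.0569 to 0.142%) were narrower than 300 bp against 15.8% of the weaker ones. Together they covered 21.3 Mb. The widest strong peaks lay at SGMS1 (3606 bp), TBL1X (3599 bp), TLCD1 (3476 bp), GPR19 beside CDKN1B (3445 bp) and FOXO3 (3403 bp), all within 1 kb of a gene boundary. The narrowest, of 241 to 252 bp, were nearest to GRAP, CD46, PDXDC1, CAMTA1 and HSPB1, and 4 of these 5 lay between genes. Intervals here and below cover counting error only, and neighbouring peaks are not independent.

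A gene boundary, either end of a protein-coding gene in the RefSeq table, lay within 1 kb of 42.1% of strong summits (interval 41.4 to 42.8%). The share was 5.26% of weaker summits and 2.41% of positions spaced every 10 kb along the genome. Location inside a gene body separated the groups much less: 49.8% of strong summits, 48.3% of weaker summits and 42.7% of the spaced positions. Of all strong summits, 29.5% lay inside a body and over 1 kb from any boundary, 21.6% outside bodies but with a gene within 100 kb, and 6.78% (6.44 to 7.14%) had no gene within 100 kb. That last share was 16.7% for weaker summits and 29.9% for the spaced positions. Strong summits outside gene bodies had a median distance of 4336 bp to the nearest body, and weaker ones 40342 bp.

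Gene content was also higher around strong peaks. Within 500 kb of a strong summit the median number of protein-coding genes was 10, against 7 for weaker summits and 5 for the spaced positions. Neighbourhoods with 20 or more genes held 23.9% of strong summits, 14.5% of weaker summits and 7.52% of the spaced positions. Most strong summits belonged to 1 gene: 61.9% lay in or within 1 kb of exactly 1 gene, 9.22% of 2 genes, 0.46% of 3 or more, and 28.4% of none.

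Within the 20000 the change with rank was gradual but uneven. The first 1000 peaks had a boundary share of 82.6% and a median width of 1202 bp, and the last 1000 had 10.7% and 712 bp. Median width was still 1153.5 bp at ranks 6001 to 7000, and the boundary share was already 13.0% at ranks 16001 to 17000. The share with no gene within 100 kb went from 0.6 to 13.6%, while the share inside a body stayed between 44.0 and 53.2% over the 20 blocks of 1000. The threshold falls within this gradual change. Peak 20000, inside PRELID2, and peak 20001, inside MAGEA12 on chromosome X, had the same deposited −log10 q of 38.5, a fold of 11.6 and a pileup of 51 reads, and differed in width (908 and 577 bp).

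**Figure D1:**
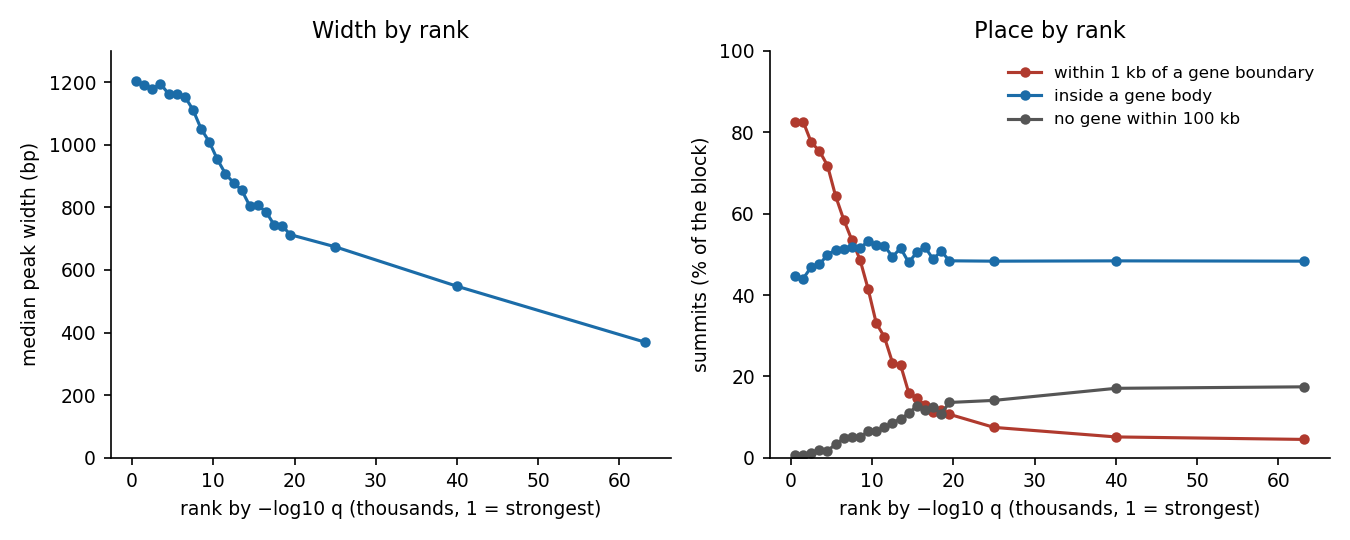
Median peak width in bp (left) and share of summits in 3 kinds of place in % (right) against rank by −log10 q, in 20 blocks of 1000 strong peaks and 3 larger blocks of weaker peaks (10000, 20000 and 26402 peaks); each point is 1 block. Width and boundary share fall along the strong peaks, while the share inside gene bodies stays near 50%.

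Boundary peaks and remote peaks differed in pileup more than in fold. Pileup, the number of reads stacked on the summit, and background, the number expected there, were recovered from the deposited fold and p-value, with fold taken as (pileup + 1)/(background + 1), and gave back the deposited p-value of all peaks to within 0.01 in −log10 units. The caller's window for the background is not given in the sources used here, and reads of the peak itself and of neighbouring peaks may be part of it. Pileup and background are thus not known to be independent. From the first to the last 1000 strong peaks, median pileup went from 414.5 to 59 reads and median background from 33.5 to 5.1 reads. Strong boundary peaks had a median width of 1166 bp, pileup of 210 reads and fold of 11. Strong peaks with no gene within 100 kb had a median width of 883 bp, pileup of 80 reads and fold of 11.9. Median background was 18.2 reads at the former and 6.03 reads at the latter.

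The very top of the list came from 1 chromosome arm. All of the 24 strongest peaks, 126 of the first 200 and 242 of the first 1000 lay on chromosome 1 beyond its longest peak-free stretch (chr1:125184426-143202124), on the side of the long arm. That segment held 6.90% of all 20000 strong peaks, 6.14% of all peaks and 4.87% of the protein-coding genes. The 15 strongest peaks were at or next to TSACC (1025 reads), ENSA (974 reads), SUCO (991 reads), PMF1 (742 reads), FAM72A (596 reads), PRKAB2 (756 reads), LIX1L (818 reads), EFNA4-EFNA3 (914 reads), ARNT (761 reads), CHD1L (731 reads), CNST (719 reads), TADA1 (765 reads), CHTOP (680 reads), ZNF687 (957 reads) and GATAD2B (812 reads). ENSA encodes an inhibitor of the phosphatase PP2A in mitosis, ARNT a partner of the hypoxia-inducible factors, and PMF1 a kinetochore protein. FAM72A has near-identical copies on the same chromosome, so its value is uncertain.

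The order by fold over background was different. Ranked by deposited fold, the same segment held 8 of the first 24, 27 of the first 200 and 84 of the first 1000 peaks. Strong boundary peaks had a median pileup of 340 reads there, 180 reads on the other side of chromosome 1, 266 reads on chromosome 11 and 147 reads on X, while their median folds were 10.8, 11.2, 10.8 and 11.2. Across 122 windows of 25 Mb with 20 or more strong boundary peaks, median pileup ran from 92.5 to 434 reads, a ratio of 4.70, and median fold from 9.17 to 13.1, a ratio of 1.43. The highest window was 150 to 175 Mb of chromosome 1 and the lowest was 100 to 125 Mb of the same chromosome. The quartiles of the windows were 189 and 235 reads, so most of the genome lay between these extremes. Beyond the stretch of chromosome 1 the windows were uneven, from 434 reads down to 250 reads at 200 to 225 Mb. DNA copy number was not measured, and its part in these pileups was not tested.

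**Figure D2:**
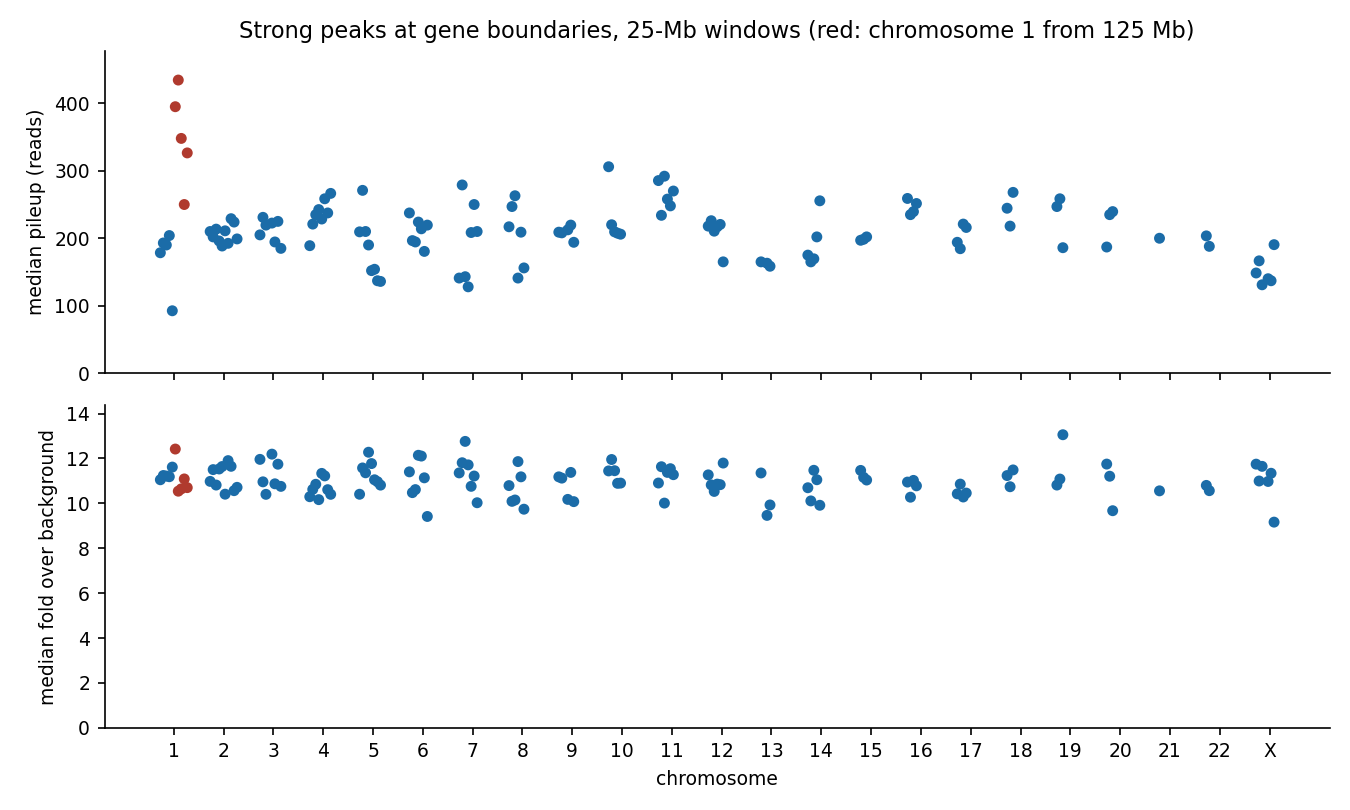
Median pileup in reads (top) and median fold over background (bottom) of strong peaks within 1 kb of a gene boundary, by chromosome; each point is a 25-Mb window with 20 or more such peaks, and red marks chromosome 1 from 125 Mb. Pileup runs from 250 to 434 reads on the red windows and falls to 92.5 reads just before them. Fold stays between 9.17 and 13.1 over all windows.

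Gene counts differed along chromosome 1 as well. Between 100 and 125 Mb of chromosome 1, 61 of 164 protein-coding genes (37.2%) carried a strong peak, and 39.0% did when the 20000 were taken by fold. Between 150 and 175 Mb the shares were 63.2% (269 of 426 genes) and 46.0%. NRAS and TENT5C, both in the low window, had no strong peak, while CKS1B, ILF2, MCL1 and BCL9, all beyond the stretch, were among the top 1000.

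Peaks with the highest fold were of another kind. The highest, 34.3, lay on chromosome 17 over 690 kb from the nearest gene, WSB1, and those that followed were near SPDYE12 (31.0), in PDE4DIP (30.8) and near GRAP (29.4). Several of the genes nearest to the 10 highest folds (SPDYE12, SPDYE8, PDE4DIP, GRAP, GRAPL) belong to families with near-identical copies. How reads that match several places were handled is not given in the sources used here, so these values are uncertain.

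Among 19970 protein-coding genes, 11902 (59.6%) carried a strong peak, defined as a summit in the body or within 1 kb of either boundary. Another 3717 (18.6%) had weaker peaks only, and 4351 (21.8%) had none. A strong peak lay within 1 kb of a boundary of 9665 genes (48.4%). Most carried few: 8917 genes had 1 strong peak, 2069 had 2, 863 had 3 to 5 and 53 had 6 or more. The share carrying one was 30.2% among genes under 5 kb and 79.1% among genes over 300 kb, so lists of long and short genes are not alike in this respect. Of 392 olfactory receptor genes, which sense odours in the nose, 12 carried a strong peak and 338 had no peak.

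GPHN, which encodes the scaffold protein gephyrin and spans 1227209 bp, carried the most strong peaks, 18. GSE1 and SHANK2 had 12 each, RABGAP1L 11, SMG6, KIRREL3 and ELMO1 10 each, DST and DIP2C 9 each and PARD3 8. These genes are long, from 243947 bp (SMG6) to the length of GPHN. Per 100 kb, among genes of 20 kb or longer with 3 or more strong peaks, the densest included KDM6B (19.4 per 100 kb), GNAI2 (15.5), PPCDC (14.7), TMEM223 (14.4), EHD1 (14.3), SH3GLB2 (14.1), ZGPAT (13.9), RARG (13.9) and LTBP4 (13.6). KDM6B removes the repressive H3K27 methyl mark, and RARG is a retinoic acid receptor. The longest genes without any peak were DLGAP2 (970849 bp), PCDH11X (843856 bp), ENTREP2 (557698 bp), THSD7A (461834 bp) and OTUD7A (395276 bp). DLGAP2 and PCDH11X encode proteins of neuronal synapses and cell contacts. PCDH11X and THSD7A lay alone in their peak-free stretches. The others belonged to longer gaps: DLGAP2 to one of 2.27 Mb with 9 genes, and ENTREP2 and OTUD7A to neighbouring ones of 1.67 Mb (9 genes) and 2.43 Mb (18 genes) on chromosome 15, both with copies of the GOLGA8 family.

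Strong peaks also sat in groups. Joined where no more than 12.5 kb apart, the 20000 formed 16777 units, of which 14310 were single peaks, 1945 were pairs and 55 held 5 or more. The largest held 8 peaks each: B4GALT3 to USP21 on chromosome 1 in 56.8 kb, CIRBP and MIDN on chromosome 19 in 36.3 kb, and a cluster of histone genes on chromosome 6 in 47.9 kb. LMNA, which encodes the nuclear lamins A and C, formed a unit of 7 by itself in 45.4 kb.

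All 14 plasma cell regulators carried a strong peak (100%, against 59.6% of all protein-coding genes), and 11 carried one at a boundary (78.6%, against 48.4%). Their median length was 81422 bp, and 71.9% of all genes of 50 to 100 kb carried a strong peak. The median rank of the regulators' strongest peak was 5730, beside 5716 for all genes with a strong peak. The peaks of the regulators were thus not at the top of the list. IRF4, the transcription factor myeloma cells depend on, had a strongest peak of 371 reads, 1700 bp wide and 233 bp before its start. PRDM1 carried 3 strong peaks, the best of 258 reads inside the gene, and XBP1 1 of 263 reads at its start. POU2AF1, a coactivator of B lineage transcription, had 1 of 210 reads, MEF2C had 3 with a best of 303 reads, and ARID1A had 3 with a best of 205 reads. Pileup at the best peak was 378 reads for TCF3, 302 for EP300, 287 for ELL2, 285 for ZBTB20, 277 for BMI1, 273 for ATF4, 227 for IKZF1 and 68 for IKZF3. IKZF1 and IKZF3 encode Ikaros and Aiolos, the proteins degraded under pomalidomide. The best peak of IKZF3 was the lowest of the 14 in pileup and rank, and lay inside the gene 44858 bp from a boundary. Its background was also low, 5.09 reads, and its fold of 11.3 was the highest of the 14.

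As a list, the plasma cell regulators combined high pileup with high background. Their strongest peaks had a median pileup of 275 reads, beside 204 for all genes with a strong peak, and a median fold of 7.43, beside 11. IRF4 had a background of 65.6 reads and a fold of 5.59, and BMI1, a Polycomb protein, had 76.2 reads and a fold of 3.6. The count follows the ranking: taken by fold, 5 of the 14 kept a strong peak, against 50.2% of all genes, and ATF4, BMI1, EP300, IKZF1, IRF4, POU2AF1, PRDM1, TCF3 and XBP1 lost theirs.

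**Figure D3:**
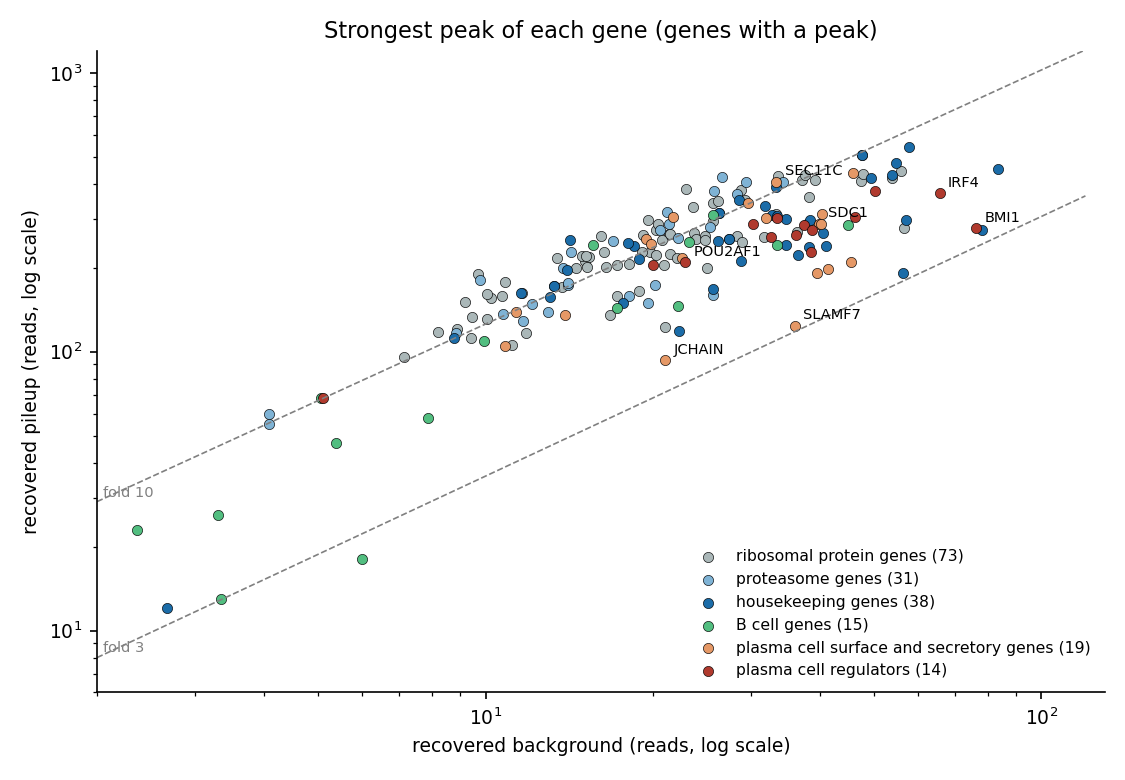
Recovered pileup against recovered background in reads, both on log scales, for the strongest peak of each gene with a peak in 6 lists; each point is 1 gene, and dashed lines mark a fold of 3 and of 10. Plasma cell regulators such as IRF4 (371 over 65.6 reads) sit to the right of most ribosomal and proteasome genes, and SLAMF7 (fold 3.38) lies close to the lower line.

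Of 21 plasma cell surface and secretory genes, 17 (81.0%, against 59.6% of all genes) carried a strong peak, 2 had weaker peaks only and 2 (9.52%, against 21.8%) had none. Taken by fold, 9 of the 21 (42.9%) had a strong peak, against 50.2% of all genes. Genes of the endoplasmic reticulum lay at both ends of the order. SEC11C, a signal peptidase subunit, ranked 520 (407 reads), the disulfide isomerase PDIA4 797 (436 reads), the chaperone HSPA5 1386 (342 reads) and CRELD2 1427 (303 reads). SPCS3 ranked 3066 (302 reads), SSR4 3544 (243 reads) and HSP90B1 3962 (312 reads), but TXNDC5 12258 (210 reads) and MZB1 12557 (198 reads). Surface genes were spread over the same range: FCRL5 ranked 2873 (254 reads), SDC1, which encodes CD138, 5163 (288 reads), TNFRSF17, which encodes BCMA, 5290 (287 reads), and CD38 5966 (217 reads). TNFRSF13B followed at 8754 (139 reads), CD27 at 10453 (135 reads), ITGB7 at 12729 (192 reads) and GPRC5D at 13209 (105 reads). The CD27 summit lay 342 bp past the downstream end of the gene. SLAMF7, the target of elotuzumab, and JCHAIN, which joins IgA and IgM chains, missed the threshold at ranks 25946 and 25606 despite pileups of 124 and 93 reads, with folds of 3.38 and 4.26. Both pass when the list is ranked by pileup, an alternative chosen after seeing the data. CD79A, a subunit of the B cell receptor, had its nearest summit 2904 bp away, and DERL3 lay in a peak-free stretch with 12 genes described further on.

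B cell genes were near the share of all genes: 9 of 18 (50%, against 59.6%) carried a strong peak, 6 had weaker peaks only and 3 had none. Several transcription factors that a plasma cell is known to silence were among the 9, but some are long genes. PAX5 spans 201000 bp, BCL11A 103405 bp, BACH2 370316 bp and EBF1 403997 bp. Of all genes, 75.9% of those of 100 to 300 kb and 79.1% of those over 300 kb carried a strong peak. CIITA (76816 bp), BCL6 (24092 bp) and SPIB (12377 bp) are shorter, and the shares in their length classes were 71.9%, 68.3% and 52.5%. PAX5, which maintains B cell identity, had 3 strong peaks with a best of 241 reads inside the gene, BACH2 had 5 with a best of 242 reads, CIITA, the activator of MHC class II genes, 3 with a best of 247 reads, and EBF1 2 with a best of 109 reads. SPIB (284 reads), BCL6 (143 reads) and BCL11A (68 reads) had 1 each, BLK 3 (best 146 reads) and RAG1 2 (best 309 reads). The strong peak of SPIB lay beyond the downstream end of the gene, with its summit 488 bp past that end. When only the 10000 strongest peaks were used, EBF1, BCL6, BCL11A and BLK lost their strong peak, while PAX5, BACH2, CIITA, SPIB and RAG1 kept one. Open chromatin at a gene is no measure of its transcript, which was not measured here. The genes for surface proteins were mostly low: MS4A1 (CD20) and FCER2 (CD23) were among those without a peak, and CD22 had 18 reads, CD79B 58 reads, CR2 47 reads and VPREB1 13 reads at their best. RAG2 (23 reads), which acts in receptor gene rearrangement, also had weaker peaks only.

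Marker lists of other lineages were below the 59.6% of all genes with a strong peak, except the stem and progenitor list. The median pileup of their strong members, between 75 and 185 reads, was below the 204 of all genes, except in the erythroid and megakaryocyte list, where 2 genes gave 262. Among T and NK cell genes 8 of 18 (44.4%) had a strong peak, led by BCL11B (214 reads), EOMES (149 reads) and GATA3 (161 reads), and NCAM1, which encodes CD56, had the most, 6. THEMIS, NKG7 and GNLY had no peak. Stem and progenitor genes reached 7 of 10 (70%), with MECOM (6 strong peaks, best 351 reads), RUNX1 (5, best 239 reads) and KIT (177 reads) first, and HOXA9 without a peak. The median length of this list was 90031 bp, and the share over all genes of 50 to 100 kb was near its own, 71.9%. In myeloid genes the count was 3 of 15 (20%): S100A8 (75 reads), SPI1 (77 reads) and FCGR1A (66 reads), which has near-identical copies and is uncertain. CEBPE, ELANE, CD14, LYZ, AIF1 and S100A9 had none, 40% of the list against 21.8% of all genes. Erythroid and megakaryocyte genes gave 2 of 12 (16.7%), EPOR (388 reads) and GP9 (136 reads), and 6 genes, 50% of the list, had no peak, among them GATA1, KLF1, TAL1, HBB and PF4.

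Non-blood tissues gave similar low shares. Epithelial genes had 4 of 14 (28.6%), led by ELF3 (460 reads, on chromosome 1 beyond the stretch), CDH1 (139 reads, 2 strong peaks) and GRHL2 (84 reads, also 2). EPCAM, KRT5, KRT14 and CLDN4 had no peak. Endothelial and stromal genes had 4 of 14 (28.6%): PECAM1 (3 strong peaks, best 170 reads), VWF (116 reads), COL1A1 (139 reads) and ACTA2 (122 reads), with CDH5, KDR and CLDN5 without. For neural genes the count was 5 of 15 (33.3%), led by TUBB3 (305 reads), SYN1 (119 reads) and RBFOX3 (111 reads, with the most strong peaks, 2), and NEUROD1, OLIG2, GFAP and NEFM were among those with none. Liver genes had 2 of 13 (15.4%), HNF4A (107 reads) and TF (102 reads, 2 strong peaks), with AFP next at 46 reads and below the threshold. ALB, APOA1, TTR, FOXA2, CYP3A4, SERPINA1, FGA and FGB (61.5%) had no peak. Muscle genes had 1 of 10 (10%), RYR1, a calcium channel gene of 3 strong peaks (185 reads), ahead of TTN (46 reads) and MYOG (50 reads), and MYOD1, MYF5, MYH7 and DES had none. A strong peak in a long gene such as RYR1 or VWF lay far inside it, 43237 and 39912 bp from a boundary. Taken by fold, with 50.2% over all genes, the order of the lists changed. Plasma cell regulators had 35.7% and plasma cell surface and secretory genes 42.9%. Stem and progenitor genes had 80%, T and NK cell genes 44.4%, B cell genes 38.9% and endothelial and stromal genes 35.7%. The remaining lineage lists lay lower, from 15.4% (liver) to 21.4% (epithelial).

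**Figure D4:**
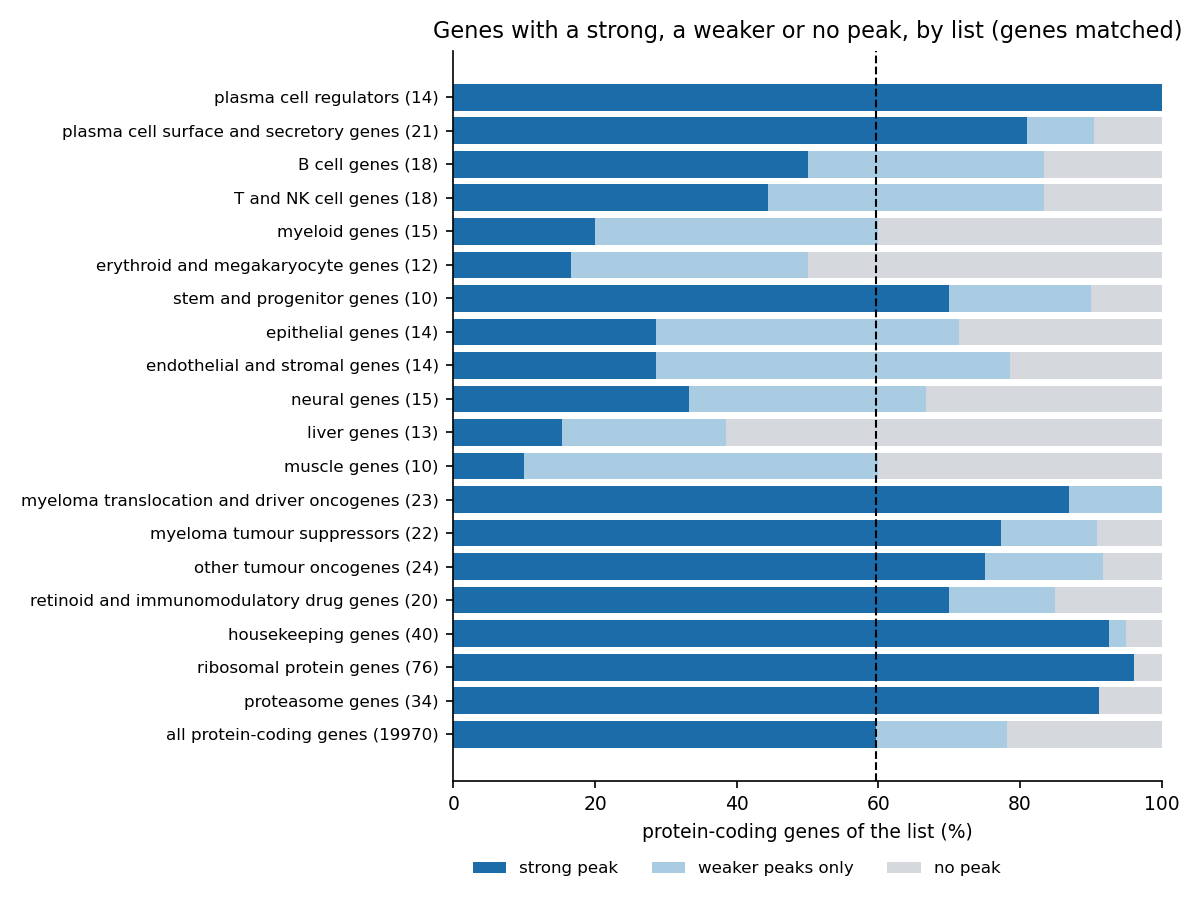
Share of protein-coding genes in each list (number matched in brackets) with a strong peak, weaker peaks only or no peak, in %; the dashed line is the share with a strong peak over all 19970 genes, 59.6%. Regulators of plasma cells, ribosomal, housekeeping and proteasome genes lie right of the line, and muscle, liver, erythroid and myeloid genes left of it.

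Of 23 myeloma translocation and driver oncogenes in the gene table, 20 (87.0%, against 59.6% of all genes) carried a strong peak, 3 had weaker peaks only and none lacked peaks. ILF2 (rank 55, 662 reads), BCL9 (rank 71, 585 reads, 4 strong peaks), CKS1B (rank 170, 821 reads) and MCL1 (rank 604, 450 reads) lay on the high segment of chromosome 1, and all belong to the long arm genes studied in myeloma. CKS1B, a regulator of the cell cycle kinases, had a background of 136 reads and a fold of 5.99. Off that segment, BRAF (250 reads), CCND3 (246 reads, 4 strong peaks) and MAF (195 reads, 4 strong peaks) were among the first. MAF and the cyclin D genes are partners of other myeloma translocations. EGR1 (293 reads), MYCN (237 reads), PIM1 (222 reads), PIM2 (212 reads), CCND1 (208 reads), MYCL (181 reads), BCL2 (153 reads), MYC (151 reads) and MAFA (105 reads) followed with strong peaks. MYC, at rank 18481, stood near the end of the 20000, with a fold of 4.02.

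CCND2, the cyclin D gene linked with t(4;14) and MAF myeloma, had no strong peak by the rule, although 137 reads lay on its best summit. Its background there was 48.8 reads and its fold 2.77, which put it at rank 30036. FGFR3 had 67 reads over a background of 22, a fold of 2.95 and rank 42285, and NRAS 52 reads, a fold of 9.64 and rank 21976. CCND2 and FGFR3 gain a strong peak when the window around a gene is 5 kb, when whole peak intervals are used or when the ranking is by pileup, and NRAS when the 20000 are taken by fold. Taken by fold, 12 of the 23 (52.2%) had a strong peak, near the 50.2% of all genes.

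NSD2, the histone methyltransferase gene brought under immunoglobulin enhancers by t(4;14), carried 2 strong peaks among 13. The best, 153 reads over a background of 13.8, lay 754 bp before its start and the other, 92 reads over 6.43, 28.0 kb into the gene. Further in, background was higher and no peak was strong. Between 38 and 130 kb after the start 12 weaker peaks had backgrounds from 15.6 to 34.9 reads (median 24.5) and pileups from 38 to 114 reads. The 5 weaker peaks from 60 kb before to 38 kb after the start had backgrounds from 2.36 to 13.5 reads (median 3.61), and those over FGFR3 and TACC3, between 60 and 170 kb before, from 9.19 to 23.4 reads (median 15.3). Over all weaker peaks the median was 2.85 reads, and 3.24% had 15 or more. These borders were chosen after seeing the values, the break point is not in the data used here, and its part in the pattern was not tested.

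**Figure D5:**
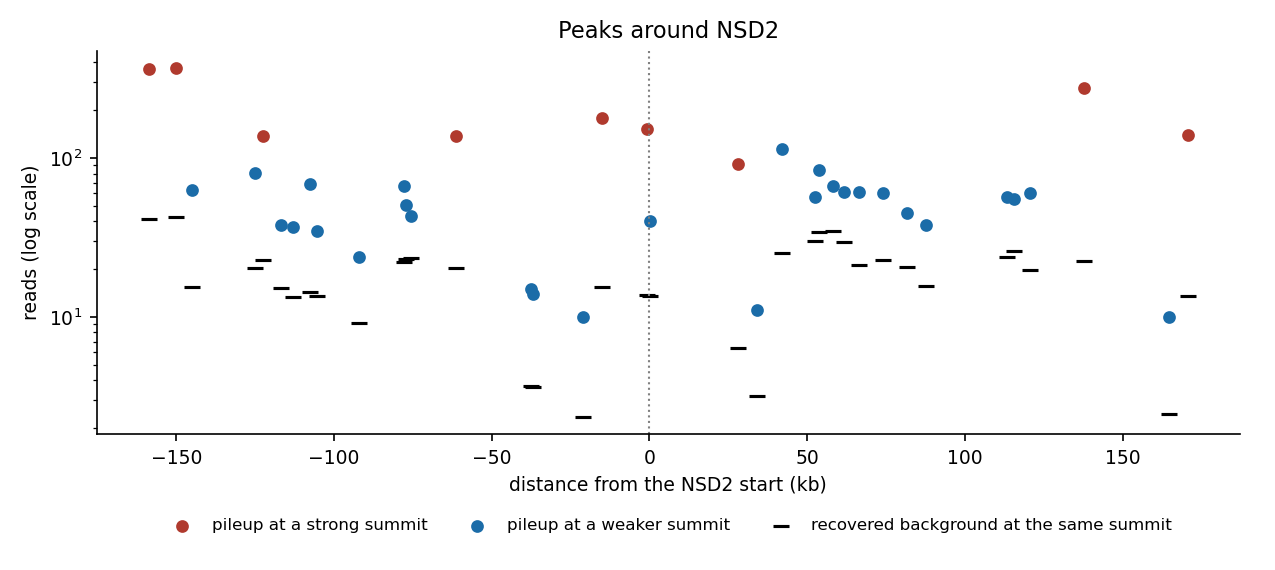
Pileup in reads (points, log scale; red strong, blue weaker summits) and recovered background (black dashes, same axis) of the 37 peaks around NSD2 against distance from the annotated NSD2 start in kb. Dashes at the weaker summits lie between 15.6 and 34.9 reads from 38 to 130 kb, and between 2.36 and 13.5 reads from 60 kb before to 38 kb after the start.

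Windows of 100 kb with 5 or more weaker peaks gave a wider view of raised background, a measure chosen after seeing the data. In 2905 such windows the median background of weaker peaks had a median of 4.07 reads and a 95th percentile of 10.6. The 50 highest ran from 15.3 to 62.0 reads and touched 207 protein-coding genes (1.04%). Among them were IRF4 and PRDM1 of 14 plasma cell regulators, SDC1 and JCHAIN of 21 surface and secretory genes, and CCND2, FGFR3, IRF4 and NSD2 of 23 myeloma oncogenes. The second highest held the non-coding genes NEAT1 and MALAT1 (56.6 reads) and the third CCND2 (48.8 reads), followed further down by BCOR (37.2 reads), SDC1 (34.2 reads), PRDM1 (26.6 reads) and NSD2 with NELFA (23.8 reads). No B cell gene and no gene of the T and NK, myeloid, erythroid, epithelial, stromal, neural, liver or muscle lists touched the 50.

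Tumour suppressors of myeloma carried strong peaks at 17 of 22 genes (77.3%, against 59.6% of all genes), 3 had weaker peaks only and 2 had none. Their median length was 52250 bp, and 71.9% of all genes of 50 to 100 kb carried one. Taken by fold, 12 of the 22 (54.5%) had a strong peak, near the 50.2% of all genes. ATM, the DNA damage kinase, ranked 269 (492 reads), CYLD, an inhibitor of NF-κB signalling, 436 (410 reads), BIRC2 833 (354 reads), WWOX 1111 (339 reads, 4 strong peaks) and MAX 1123 (368 reads). CDKN1B had 331 reads, CDKN2A 283, TRAF2 267, CDKN2B 241, DIS3 214, NF1 167, BIRC3 164, RB1 160, KDM6A 133 and FAF1 52. TRAF3 (87 reads), TENT5C (82 reads) and SP140 (31 reads) missed the threshold. CDKN2C, an inhibitor of CDK4 and CDK6 on the short arm of chromosome 1, had no peak, with the nearest summit 84359 bp away, and LTB lay in a peak-free stretch.

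Of 24 other tumour oncogenes, 18 (75%, against 59.6% of all genes) carried a strong peak, led by ABL1 (316 reads), CDK4 (316 reads) and MDM2 (334 reads). The list had a median length of 41327 bp, and 68.3% of all genes of 20 to 50 kb carried one. ALK, a receptor gene of 728813 bp, had the most, 4, and FOS and TLX3 had none. Taken by fold, 14 of these 24 genes (58.3%) had a strong peak, against 50.2% of all genes and 52.2% of the myeloma oncogenes. Of 20 genes of the retinoid and immunomodulatory drug pathways, 14 (70%, against 59.6%) carried one. Their median length was 31440 bp, and the share over all genes of 20 to 50 kb was near theirs, 68.3%. The ubiquitin ligase subunit RBX1 (312 reads) came first, then RARG (266 reads, 3 strong peaks), while RXRB, CRABP1 and SALL4 had no peak. CRBN, the pomalidomide receptor, had 162 reads and RARB, the retinoid receptor named in the series title, 85 reads, both with a strong peak in cells that had received neither drug.

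Widely used genes had high shares, against 59.6% of all genes. Strong peaks lay at 37 of 40 housekeeping genes (92.5%), 73 of 76 ribosomal protein genes (96.1%) and 31 of 34 proteasome genes (91.2%). RPLP0 (rank 245, 507 reads), LTAP1, also known as C1orf43 (rank 272, 542 reads), and ALDOA (rank 699, 475 reads) led the housekeeping genes, and LMNA had the most strong peaks, 7. RPL26 (rank 299) and RPS25 (rank 368) followed RPLP0 among ribosomal genes, where no gene had more than 2 and RPS19 was one with 2. PSMD13 (rank 184), PSMD4 (rank 355) and PSMD8 (rank 470) led the proteasome, and PSMA1 had 4. Median pileup of the strongest peak was 228 reads for ribosomal, 199 for proteasome and 252 for housekeeping genes, beside 204 for all. Taken by fold, against 50.2% of all genes, a strong peak lay at 17 of the 40 housekeeping genes (42.5%), 57 of the 76 ribosomal protein genes (75%) and 25 of the 34 proteasome genes (73.5%).

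The widely used genes without a peak fell mostly into long stretches that held none. Of the 8, among them B2M, TUBB, RPS9, RPS18, PSMB3, PSMB8 and PSMB9, 6 lay in stretches of 250 kb or more between neighbouring peaks that span 10 or more protein-coding genes. There were 25 such stretches with 637 genes, and they held 636 of the 4351 genes without a peak (14.6%). The largest in gene number covered the MHC on chromosome 6, chr6:31374620-33513149 with 101 genes (among them RPS18, PSMB8, PSMB9, RXRB, LTB and AIF1) and chr6:28490443-31356543 with 70 (among them TUBB). The longest, chr17:35764816-38844091, held 55 genes, among them PSMB3, and chr19:54024214-55088665 held 43, among them RPS9. DERL3 lay in chr22:23751591-24063774 with 12. The longest also holds near-identical gene copies (TBC1D3, CCL3 and CCL4 families), and how reads that match several places were handled was not tested, so a missing peak there does not show closed chromatin.

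Other gaps involve genes of this tumour type. The immunoglobulin heavy chain locus had no peak over 1234 kb, chr14:105533069-106766795, which spans 159 annotated IGH genes and segments. The whole annotated locus, with 174 such genes and segments, held 3 peaks, 2 of them strong. B2M, the light chain of MHC class I, lay in a stretch of 347 kb, chr15:44675445-45022626, with TRIM69 and TERB2, and its nearest summit was 36271 bp away. The peaks on either side of that stretch belonged to PATL2 and SORD. Missing DNA, unmapped reads and closed chromatin cannot be told apart in a peak list.

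At promoters the sequence split followed CpG content. RefSeq promoter windows were matched for 15811 of the 19970 genes, 22131 windows in all. A strong summit lay within 1 kb of the start of 10430 windows (47.1%), a weaker one of 2116 (9.56%) and none of 9585 (43.3%). Median GC content was 66.0%, 62.7% and 56.0% in the 3 classes, and the median number of CpG dinucleotides per 300 bases 27, 16 and 8. The share of windows with a strong summit went from 4.38% at 0 to 4 CpG to 69.7% at 25 or more. NSD2, with 63 CpG, and XBP1, with 40, fell in the top class, while CD79A, with 4, fell in the lowest. Strong summits sat just upstream: over 8313 genes the summit nearest to a start lay at a median of -47 bp (quartiles -132 and 25 bp), 65.3% upstream.

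Motif content differed between these classes in both directions. GGGCGG was in 74.2% of windows with a strong summit, 52.8% with a weaker one, 37.5% with none and 56.3% of all. CCAAT was in 37.3%, 26.6%, 33.5% and 34.6%, and TGACGTCA in 3.47%, 1.46%, 1.12% and 2.26%. TATAAA went the other way, 4.39%, 7.66%, 15.4% and 9.46%. CACGTG was in 10.3%, 8.22%, 6.23% and 8.34%, the octamer ATGCAAAT in 1.42%, 1.56%, 1.92% and 1.65%, and GAAANNGAA in 5.97%, 6.66%, 8.41% and 7.09%. The classes differ in base composition, which moves the count of every such motif, and a match is not a bound site.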

How the data were processed

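ATAC-seq of OPM-2 cells measured open chromatin, and the DMSO library (1 of 4, 72 h) was used. The authors deposited a peak list and a summit list; per the submitters' processing notes the build was hg38. The sources used here do not name the aligner, the peak caller or the treatment of Tn5 offsets, duplicates and multiply matching reads, and depth is unknown. The deposited list gives for each peak a score, a fold (ratio) over background, the −log10 p-value and the −log10 q-value (lowest 1.31, a q-value of 0.0494), and the summit's offset. The list used is of this library alone.

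The other 3 libraries and 2 peaks on chromosome Y were left out, and peaks were ranked by −log10 q. Pileup and background were recovered from fold and p-value, and the scripts were tested on simulated data. Gene positions came from the RefSeq table on GRCh38.p14, promoters from RefSeq on the same assembly. Work used Python 3.11.15 with pandas 2.3.3, NumPy 2.4.6 and SciPy 1.17.1. There is no replicate, so no test was run, and shares carry 95% Wilson intervals for counting error only. Of 24 listed myeloma oncogenes PVT1, which is non-coding, was not matched.

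Members and lists were chosen with earlier results of these data known. Named were the 15 strongest, 5 widest and 5 narrowest strong peaks, the 10 genes with most strong peaks and with most per 100 kb, the 5 longest without a peak, every member of the plasma cell, B cell and myeloma lists, and of other lists the 3 strongest, the one with most and those without a peak. The rule's 3 longest peak-free stretches outside centromeres were replaced by those with 10 or more genes, since no centromere positions were used. Alternatives were 10000 or 30000 peaks, ranking by fold or pileup, whole peak intervals, peaks under 300 bp left out, and a 5 kb window. Some genes that this rule names are not reported here, and counts over lists include them.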

Additional observations from a re-analysis of the deposited data

How the results depend on the processing

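Of 172 recomputed values, 132 stayed within 1.5 times the reported count or median, or within the interval of the reported share, and 40 moved. The share at a gene boundary was 65.6% for 10000 and 30.6% for 30000 peaks, 31.8% ranked by fold, 43.5% by pileup, 44.2% by whole interval and 52% with a 5 kb window. The share inside bodies was 47.1% by fold, 51.2% by pileup and 70.7% by whole interval. No gene within 100 kb held for 3.11% of 10000 and 9.22% of 30000 peaks, 11.3% by fold and 5.38% by pileup. Genes with a strong peak were 44.8% with 10000 peaks, 65.8% with 30000, 64.0% with 5 kb, 50.2% by fold and 60.4% by whole interval. By fold, 84 rather than 242 of the first 1000 peaks lay beyond the stretch of chromosome 1. Ranked by fold, strong members fell to 5 of 14 plasma cell regulators, 9 of 21 surface and secretory genes, 12 of 23 myeloma oncogenes, 9 of 20 drug pathway genes, 17 of 40 housekeeping and 3 of 15 neural genes, and muscle genes had 2. With 10000 peaks they were 5 B cell, 5 T and NK, 1 epithelial, 0 liver, 0 myeloid, 1 neural, 9 drug pathway and 4 stem cell genes. With 30000 peaks they were 8 endothelial and stromal, 7 epithelial and 3 muscle genes. With the 5 kb window they were 5 erythroid, 2 muscle and 7 myeloid genes. Ranking by fold shared 14867 of the 20000 peaks with the reported order and ranking by pileup, an alternative added after seeing the data, 17985. The cause was not tested. With 1 library, leaving out a replicate was not possible. No paired analysis was possible because there is 1 library in each group. Depth is unknown, so absence of a peak is a limit of detection.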

Other observations

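Non-coding genes were left out of the counts above. Of 18177 long non-coding RNA genes 3983 (21.9%) carried a strong peak, and of 1911 microRNA genes 150 (7.85%). FIRRE, a nuclear RNA gene on chromosome X that holds many CTCF sites, carried 15 strong peaks among 17, more than any protein-coding gene except GPHN. Among long non-coding RNA genes whose symbols do not start with LOC, LIPE-AS1 and MEF2C-AS1 followed with 10 each. Both overlap protein-coding genes. PVT1, beside MYC and a known rearrangement partner in myeloma, had 2 strong peaks with a best of 180 reads and a fold of 14.2. GAS5, on the high segment of chromosome 1, had 769 reads (rank 80), NEAT1 431 reads over a background of 161, and MALAT1 398 reads over 63.8. MIR17HG had 250 reads and MIR142HG 239 reads over 85.9. MIR155HG, the host of a microRNA of activated B cells, had weaker peaks only (26 reads), HOTAIR had 66 reads below the threshold, and H19 had no peak.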
